A study of Mus musculus with 4 samples.

Results

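The 8 genes described here encode chemokines that draw neutrophils and monocytes out of the blood, and the receptors that sense them. They are the CXC ligands Cxcl1, Cxcl2 and Cxcl5, the CC ligands Ccl2, Ccl7 and Ccl3, the neutrophil receptor Cxcr2 and the monocyte receptor Ccr2. They were picked out by symbol, and all 8 were found among the 32285 genes of the count matrices.

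Chemokines are small secreted proteins that bind receptors coupled to G proteins on leukocytes, and the cells move toward higher concentrations. In mice, CXCR2 on neutrophils binds CXCL1, CXCL2 and CXCL5, and CCR2 on inflammatory monocytes binds CCL2 and CCL7, while CCL3 acts through other receptors, CCR1 among them. Pancreatic tumours are known for dense stroma and for many infiltrating myeloid cells, and both tumour cells and fibroblasts are known sources of these ligands.

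Droplet single-cell RNA sequencing was done on orthotopic pancreatic tumours of C57BL/6J mice, which had received cells of the line KPC-4545 or KPC-3403, which are named for a genetic mouse model of pancreatic cancer. All tumours were untreated and were taken on day 13 after implantation, so there is no tumour-free pancreas among the samples. Each line gave 1 unsorted library, called whole, and 1 library of sorted cells without surface CD45 (leukocytes), CD31 (endothelium), EPCAM (epithelium) or TER119 (red cells), called enriched. The animals' age and number are not given in the sources used here, and nothing in the labels says that the libraries came from separate animals.

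The libraries held between 5746733 UMIs (whole KPC-4545) and 51450719 UMIs (enriched KPC-3403), where a UMI (unique molecular identifier) counts 1 captured RNA molecule. Filtering left 1513 cells of enriched KPC-4545, 527 of whole KPC-4545, 2467 of enriched KPC-3403 and 1090 of whole KPC-3403, with median depths from 3589 to 16322 UMIs per cell. Of the barcodes called as cells, 137 occurred in both enriched KPC-4545 and whole KPC-3403, against 6 to 8 for every other pair of libraries. For 129 of these the enriched KPC-4545 copy was at least 10 times shallower, with a median of 785 UMIs, and such copies were removed. The enriched KPC-4545 library stood apart in its makeup, since 95.4% of its cells lay in clusters that took no class name, against 6.83% in whole KPC-4545, 2.03% in enriched KPC-3403 and 1.10% in whole KPC-3403. In these unnamed cells of enriched KPC-4545, 9 of 10 epithelial markers had UMIs with a summed level of 31.0 per 10000, the leukocyte gene Ptprc had none, and Epcam had 3 UMIs. With 29690560 UMIs in these cells, such counts do not name them. Their clusters 6, 9 and 15 had 4, 5 and 5 of 10 epithelial markers in at least 10% of cells. Clusters 2, 5 and 18, with 358, 331 and 98 cells of this library, were not nearest to the epithelial class. Despite the label of fibroblast enrichment, few cells of this library took the fibroblast-like name. They numbered 50, or 3.30% of cells, against 579 (23.5%) in enriched KPC-3403. Enriched KPC-3403 also kept 663 epithelial-like cells, or 26.9%.

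Levels below are UMIs of a gene per 10000 UMIs of a cell class in a library, with exact Poisson 95% intervals that cover counting error only. Classes are called after their marker genes, and the 8 genes and their pathway were left out of the clustering. The pathway genes Csf3r and Csf1r were nevertheless among the markers used for naming. A large stromal cluster of 817 cells in enriched KPC-3403, led by Cxcl13 and Saa3 and carrying Pdgfra, had no class name and is called the unnamed stromal cluster. Levels are compared between cells for the same gene and not between genes.

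Neutrophil-like cells stood above the mean of the other classes for Cxcl2, Ccl3, Cxcr2 and Ccl2, which is 4 of the 8 genes, where 13.7% of all 9879 genes tested were higher in that class (edgeR quasi-likelihood test on sums per class and library, adjusted p under 0.05). Macrophage/monocyte-like cells were higher for 5 of 8, namely Ccr2, Ccl2, Cxcl2, Ccl3 and Ccl7, against 12.8% of all genes. Fibroblast-like cells were higher for 4 of 8, namely Cxcl1, Cxcl5, Ccl2 and Ccl7, against 23.6% of all genes. Epithelial-like cells were higher for Cxcl5 alone, against 24.6% of all genes. NK-like cells were higher for Ccr2 and Ccl3, against 6.75%, and T-like cells for the same pair, against 10.1%. B-like and erythroid-like cells were higher for none, against 9.29% and 14.6% of all genes. In all, 18 of 64 pairs of gene and class were called higher and none lower. The count was 18 without enriched KPC-4545 and 10 of 28 pairs (7 higher, 3 lower) without whole KPC-3403. The test used 8 classes in 20 sums with 9 residual degrees of freedom, and did not include the unnamed clusters or the mesothelial-like cells, which had 20 cells in too few libraries or no name.

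Cxcl1, a main ligand of CXCR2, came from different cells in the 2 tumour lines. In the unnamed clusters it was at 17.0 (16.9 to 17.2) in enriched KPC-4545, 5.07 (4.50 to 5.70) in whole KPC-4545, 0.0729 (0.0333 to 0.138, 9 UMIs) in enriched KPC-3403, and 0 UMIs in the 12 cells of whole KPC-3403, whose limit at 3 UMIs is 0.565. In epithelial-like cells the level was 1.99 (1.66 to 2.37) in whole KPC-4545, 0.0541 (0.0414 to 0.0695) in enriched KPC-3403 and 0.0110 (0.00357 to 0.0257, 5 UMIs) in whole KPC-3403, while enriched KPC-4545 had only 6 such cells. The cells of KPC-4545 were thus above those of KPC-3403 in each comparison that these libraries allow. In whole KPC-4545 only 5 of the 36 unnamed cells had a Cxcl1 UMI. The epithelial-like level there lay under the 2.32 of free RNA, taken from barcodes with at most 100 UMIs. The part of free RNA in that level was not tested. Between the whole libraries the epithelial-like ratio was 181 (75.6 to 568).

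Fibroblast-like cells carried Cxcl1 in both lines: 14.2 (13.2 to 15.3) in enriched KPC-4545, 13.0 (12.8 to 13.2) in enriched KPC-3403 and 7.95 (7.27 to 8.66) in whole KPC-3403. The enriched libraries of the lines were close, at a ratio of 0.915 (0.847 to 0.989) for KPC-3403 over KPC-4545, and whole KPC-3403 was lower. The unnamed stromal cluster had 14.2 (14.0 to 14.4) in enriched and 5.19 (4.32 to 6.17) in whole KPC-3403, and mesothelial-like cells, which line body cavities, had 9.14 (8.91 to 9.37) in enriched KPC-3403. In the edgeR test fibroblast-like cells were higher for Cxcl1 than the mean of the other classes (adjusted p = 8.39e-06). Neutrophil-like, macrophage/monocyte-like, T-like, NK-like, B-like and erythroid-like cells held 0 to 3 UMIs of Cxcl1 in any library. The levels of neutrophil-like cells in enriched KPC-3403, 0.517 from 3 UMIs, lay under the 9.16 of free RNA in that library, taken from barcodes with at most 100 UMIs.

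Within these classes Cxcl1 was uneven from cell to cell and from cluster to cluster. In fibroblast-like cells of enriched KPC-3403 the median cell had 2.84 per 10000, the 90th percentile was 36.6 and the highest cell 146. The tenth of cells with most Cxcl1 UMIs held 60.1% of them there, 70.7% in enriched KPC-4545 and 70.9% in whole KPC-3403. Fibroblast-like cluster 3, led by Dpt and Pi16, had 10.1, 18.5 and 9.60 in enriched KPC-4545 and the enriched and whole KPC-3403 libraries, and cluster 10, with the contractile gene Acta2 among its leading genes, had 10.8, 6.86 and 6.69 in the same order. Cluster 3 was above cluster 10 in both KPC-3403 libraries, while in enriched KPC-4545 their intervals overlapped (8.84 to 11.4 and 9.21 to 12.5). Cluster 21, led by Ccl11 and Ccl19, had 19.3 in enriched KPC-3403. Among the unnamed clusters of enriched KPC-4545, Cxcl1 ranged from 6.87 in cluster 6 to 27.2 in cluster 2. In the epithelial-like cells of whole KPC-4545, 94.4% of the 126 UMIs lay in the tenth of its 44 cells with most of them, and 91 of the UMIs came from the 17 cells of cluster 16.

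At least 1 Cxcl1 UMI was seen in 70.9% of unnamed cells of enriched KPC-4545 and in 68.0%, 61.8% and 30.2% of fibroblast-like cells of enriched KPC-4545 and the enriched and whole KPC-3403 libraries. After every cell was thinned to 1000 UMIs these shares were 50.2% and 47.8%, 37.5% and 20.9%. B-like cells, which should lack the gene, had 0 of 177 cells in whole KPC-4545 and 0 of 124 in whole KPC-3403, at median depths of 3175 and 3058.5 UMIs. The 3 genes whose levels ran most alike to Cxcl1 over 21 sums of a class in a library were Plac9b, Gstm2 and Cdh11, with Pearson r of 0.951, 0.95 and 0.941. Here and for the other genes these sums share libraries and depth, and the correlations are a description.

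**Figure D1:**
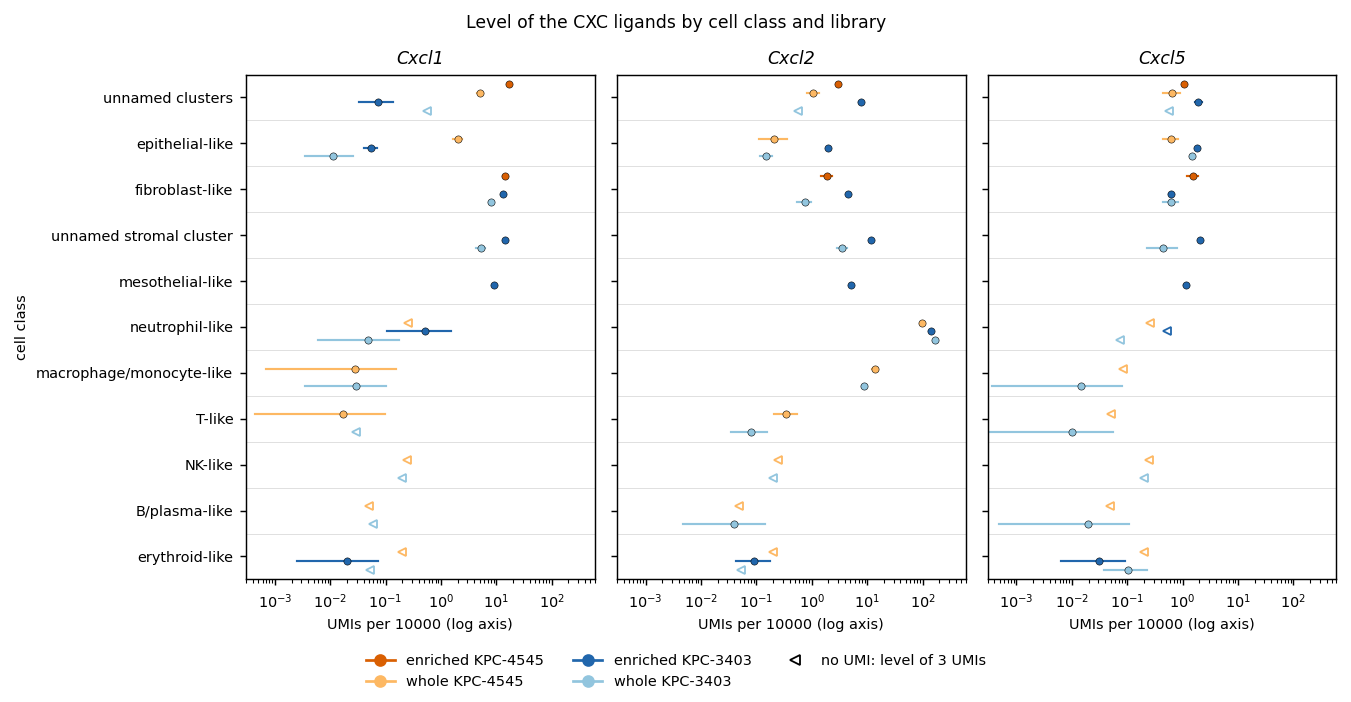
Level of the CXC ligands in UMIs per 10000 (log axis) for each cell class (rows) in the 4 libraries (colours), with exact Poisson 95% intervals as bars and open triangles at the level of 3 UMIs where a class had none. Cxcl1 is high in stromal classes of both lines but separates the lines in epithelial-like and unnamed cells, Cxcl2 is highest in neutrophil-like cells of 3 libraries, and Cxcl5 has no UMI in neutrophil-like cells.

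Cxcl2, the neighbouring CXCR2 ligand, was highest in the neutrophil-like cells that also carry its receptor. Their level was 98.5 (92.9 to 104) in whole KPC-4545, 143 (134 to 153) in enriched KPC-3403 and 167 (163 to 171) in whole KPC-3403, from 26, 22 and 130 cells. All 3 values lay above every other class in every library, and the edgeR test called the class higher (adjusted p = 3.27e-12). The ratio of whole KPC-3403 to whole KPC-4545 was 1.69 (1.59 to 1.80). Within the class, cluster 13 had 201, 143 and 265 in the same order of libraries. Cluster 23, led by the granule genes Ngp and Camp, was lower, at 10.9 in its 12 cells of whole KPC-3403.

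Macrophage/monocyte-like cells were next in the whole libraries, with Cxcl2 at 13.7 (12.5 to 14.9) in KPC-4545 and 8.70 (8.02 to 9.42) in KPC-3403 (edgeR adjusted p against the other classes = 4.88e-07). Stromal cells followed, at 11.8 in the unnamed stromal cluster of enriched KPC-3403 and 3.51 in that of whole KPC-3403, 5.21 in mesothelial-like cells, and 1.85, 4.44 and 0.741 in fibroblast-like cells of enriched KPC-4545 and the enriched and whole KPC-3403 libraries. The fibroblast-like level in enriched KPC-3403 was 5.99 times (4.51 to 8.14) that of whole KPC-3403. Unnamed and epithelial-like cells were lower in the whole than in the enriched library of a line. Unnamed cells had 3.03, 1.07 and 7.65 in enriched KPC-4545, whole KPC-4545 and enriched KPC-3403. Epithelial-like cells had 0.206, 2.0 and 0.15 in whole KPC-4545 and the enriched and whole KPC-3403 libraries. Free RNA held Cxcl2 at 4.63 and 2.53 in enriched and whole KPC-4545 and at 7.32 and 2.73 in enriched and whole KPC-3403. Fibroblast-like, mesothelial-like and epithelial-like levels lay under that of their library, as did unnamed cells of KPC-4545. Both levels of the unnamed stromal cluster lay above it, and unnamed cells of enriched KPC-3403 lay near it. Its part in these levels and in the fibroblast-like ratio was not tested. T-like cells had 0.346 and 0.0793 in whole KPC-4545 and whole KPC-3403, B-like cells 0 and 2 UMIs, and NK-like cells none.

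Cxcl2 UMIs were found in 88.5%, 77.3% and 85.4% of neutrophil-like cells of whole KPC-4545 and the enriched and whole KPC-3403 libraries, and in 75.0%, 85.0% and 78.6% after thinning. The matching B-like shares were 0% and 1.61% in the whole libraries, and 0% in both after thinning. Neutrophil-like cells were the shallower of these classes, with medians of 2465.5, 2181 and 1861 UMIs. The genes most like Cxcl2 were 1700019L13Rik, Hlx and Hdc, the last the histamine-forming enzyme of granulocytes, with r of 0.948, 0.927 and 0.919 over the 21 sums. Hdc was also a marker that named the neutrophil-like class, so its likeness is partly set by the naming.

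Cxcl1 lies on chromosome 5 of the GRCm38 assembly, from 90891241 to 90893115 on the plus strand, and Cxcl2 follows after 10.755 kb, from 90903871 to 90905938 on the same strand. The stretches before their start sites are shown because both hold matches to the letters of an NF-kB motif, in capitals, while their UMIs lay in different classes of cell. They are from RefSeq with the build GRCm38.p6, 5′ to 3′ on the plus strand, at chr5:90890995-90891244 and chr5:90903649-90903898.
Cxcl1: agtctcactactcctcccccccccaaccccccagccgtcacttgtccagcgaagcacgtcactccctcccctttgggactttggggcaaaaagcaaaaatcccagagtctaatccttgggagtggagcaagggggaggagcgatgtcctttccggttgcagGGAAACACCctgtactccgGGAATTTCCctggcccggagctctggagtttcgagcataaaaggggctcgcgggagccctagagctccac
Cxcl2: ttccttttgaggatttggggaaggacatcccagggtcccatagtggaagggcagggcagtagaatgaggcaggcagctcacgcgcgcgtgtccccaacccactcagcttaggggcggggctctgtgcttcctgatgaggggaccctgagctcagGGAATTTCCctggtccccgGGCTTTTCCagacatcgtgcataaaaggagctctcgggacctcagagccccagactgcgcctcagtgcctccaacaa
The NF-kB motif searched was GGNNTTTCC on both strands, which occurred in 1604 of 32536 RefSeq promoter stretches of this length, or 4.93%. It is a longer form shortened by 1 base after the matches of that form had been seen, so its matches here are a description only. The same letters, GGAATTTCC, stood at -70 to -62 from the Cxcl1 start and at -96 to -88 from that of Cxcl2. Each promoter had 1 further match, GGAAACACC (the motif on the reverse strand) at -89 to -81 for Cxcl1 and GGCTTTTCC at -77 to -69 for Cxcl2. Of the 8 genes, 5 matched a promoter entry, and Cxcl5, Ccl2 and Ccl7 did not. AP-1 (TGANTCA), C/EBP (TTNNGCAA) and the TATA box (TATAAA) were also searched on both strands and occurred in 6.73%, 9.57% and 12.3% of promoter stretches, but in none of the 5. The other 3 promoters held no match to any motif. A match of letters is not a measured site.

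The ratio of Cxcl1 to Cxcl2 UMIs also set the lines apart. In unnamed cells it was 5.62 (5.50 to 5.75) in enriched KPC-4545 and 4.75 (3.57 to 6.4) in whole KPC-4545, but 0.00953 (0.00435 to 0.0182) in enriched KPC-3403. In epithelial-like cells it was 9.69 in whole KPC-4545, 0.0271 (0.0207 to 0.0349) in enriched KPC-3403 and 0.0735 in whole KPC-3403. Fibroblast-like cells had 7.67, 2.93 and 10.7 in enriched KPC-4545 and the enriched and whole KPC-3403 libraries. The ratio was thus above 1 in fibroblast-like cells of both lines, and in the other 2 classes above 1 in KPC-4545 and below 1 in KPC-3403. Cluster 2 showed the difference between lines within a cluster: its cells of enriched KPC-4545 had Cxcl1 at 27.2, and its 28 cells of enriched KPC-3403 had 0.0472, beside Cxcl2 at 14.4, Cxcl5 at 3.29, Ccl2 at 8.52 and Ccl7 at 7.50.

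Cxcl5, the CXCR2 ligand known from epithelia, was the only CXC ligand higher in epithelial-like cells than in the mean of the other classes (edgeR adjusted p = 1.48e-13). It lies 129.616 kb before Cxcl1, at 90759360 to 90761624. Epithelial-like cells had 0.617 (0.439 to 0.844) in whole KPC-4545, 1.79 (1.72 to 1.87) in enriched KPC-3403 and 1.51 (1.40 to 1.63) in whole KPC-3403. The KPC-3403 libraries were near each other, at a ratio of 1.19 (1.09 to 1.30), and whole KPC-3403 was 2.45 (1.77 to 3.47) times whole KPC-4545. Stromal cells held it at a like level: 2.02 and 0.449 in the unnamed stromal cluster of enriched and whole KPC-3403, 1.14 in mesothelial-like cells, and 1.55, 0.618 and 0.617 in fibroblast-like cells of enriched KPC-4545 and the enriched and whole KPC-3403 libraries (edgeR adjusted p for fibroblast-like cells = 1.07e-08). Free RNA held Cxcl5 at 0.737 in enriched KPC-4545 and at 1.76 and 1.19 in enriched and whole KPC-3403. In KPC-3403 the fibroblast-like and mesothelial-like levels lay under it, as did the unnamed stromal cluster of the whole library. That cluster in the enriched library and fibroblast-like cells of enriched KPC-4545 lay above it. Epithelial-like cells of enriched KPC-3403 lay near it. Its part in these levels was not tested. Without the whole KPC-3403 library the fibroblast-like adjusted p was 0.200.

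Unnamed cells had Cxcl5 at 1.05, 0.634 and 1.94 in enriched KPC-4545, whole KPC-4545 and enriched KPC-3403. Cluster 12, an epithelial-like cluster with the intestinal gene Reg3g among its leading genes, was highest in enriched KPC-3403 at 4.76, and had 1.85 in whole KPC-3403 and 0.864 in whole KPC-4545. Neutrophil-like cells held no Cxcl5 UMI in any library, and macrophage/monocyte-like, T-like and B-like cells of whole KPC-3403 held 1 each. Of epithelial-like cells, 31.8%, 38.2% and 36.6% had a UMI, and 7.69%, 9.95% and 8.75% after thinning, against 0% of B-like cells in both whole libraries after thinning. Yap1, Slc4a4 and Fat1 ran most alike to Cxcl5, with r of 0.980, 0.976 and 0.976.

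Ccl2, the main CCR2 ligand, had its highest levels in stromal classes in KPC-3403 and in fibroblast-like cells in enriched KPC-4545. Unnamed cells held 97.8% of its UMIs in enriched KPC-4545, where they were 95.4% of cells. The unnamed stromal cluster had 21.4 (21.1 to 21.6) in enriched and 7.96 (6.88 to 9.16) in whole KPC-3403, and mesothelial-like cells 14.8 (14.5 to 15.1). Fibroblast-like cells had 9.54 (8.69 to 10.4) in enriched KPC-4545, 13.2 (13.0 to 13.5) in enriched KPC-3403 and 4.69 (4.18 to 5.25) in whole KPC-3403. All 3 fibroblast-like values lay above epithelial-like cells of every library, which had 0.0791, 0.227 and 0.0154 in whole KPC-4545 and the enriched and whole KPC-3403 libraries. The class test gave an adjusted p of 1.22e-12 for fibroblast-like cells (edgeR). Unnamed cells had 7.90 (7.80 to 8.01), 1.49 (1.18 to 1.84) and 4.63 (4.25 to 5.02) in enriched KPC-4545, whole KPC-4545 and enriched KPC-3403.

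Leukocytes held Ccl2 mainly in the macrophage/monocyte-like class, at 3.88 (3.26 to 4.58) in whole KPC-4545 and 1.41 (1.14 to 1.71) in whole KPC-3403 (edgeR adjusted p = 2.18e-10). The line ratio was 2.76 (2.11 to 3.61), with KPC-4545 higher. The 2 sub-clusters of the class with macrophage or monocyte markers made up 44.4% of its cells in whole KPC-4545 and 26.9% in whole KPC-3403. Neutrophil-like cells had no UMI in whole KPC-4545, 12 UMIs (2.07) in enriched KPC-3403 and 7 UMIs (0.171) in whole KPC-3403. Their call in the edgeR test (adjusted p = 0.0160) rests on these counts, and free RNA of enriched KPC-3403 held Ccl2 at 10.6. That call was lost without either whole library (adjusted p = 0.154 without KPC-4545 and 0.901 without KPC-3403). T-like and NK-like cells held no Ccl2 UMI. Cd302, Dab2 and Cd34 ran most alike to Ccl2, with r of 0.940, 0.939 and 0.932.

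Ccl7, also a CCR2 ligand, lies 8.258 kb after Ccl2 on chromosome 11 and was highest in fibroblast-like cells. These had 15.8 (14.7 to 17.0) in enriched KPC-4545, 16.5 (16.2 to 16.8) in enriched KPC-3403 and 4.24 (3.76 to 4.78) in whole KPC-3403. The enriched libraries of both lines overlapped in their intervals, whole KPC-3403 was lower, and the class was called higher (edgeR adjusted p = 1.50e-12). The unnamed stromal cluster had 13.5 in enriched and 0.572 in whole KPC-3403, a ratio of 23.7 (14.1 to 43.3), although the whole library had only 11 such cells. Mesothelial-like cells had 7.16, and unnamed cells 1.30, 0.326 and 4.21 in enriched KPC-4545, whole KPC-4545 and enriched KPC-3403. Macrophage/monocyte-like cells had 0.809 in whole KPC-4545 and 0.316 in whole KPC-3403 (edgeR adjusted p = 2.07e-05). Free RNA held Ccl7 at 1.94 and 0.633 in these libraries, above both of these levels, and its part in them was not tested. Epithelial-like cells had 0.0633, 0.120 and 0.00220, the last from 1 UMI.

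The 2 neighbouring CC genes were not held in a fixed ratio. The UMIs of Ccl2 per UMI of Ccl7 were 0.603, 0.802 and 1.11 in fibroblast-like cells of enriched KPC-4545 and the enriched and whole KPC-3403 libraries, 2.06 in mesothelial-like cells, and 6.08 in unnamed cells of enriched KPC-4545. Macrophage/monocyte-like cells had 4.79 and 4.45 in whole KPC-4545 and whole KPC-3403. Fibroblast-like cells were thus lower in this ratio than mesothelial-like and macrophage/monocyte-like cells, with 0.265 in cluster 21, where Ccl7 stood at 32.2. Unnamed cells of enriched KPC-3403, at 1.10, lay beside the fibroblast-like cells of whole KPC-3403. The unnamed stromal cluster differed between preparations, at 1.58 in enriched and 13.9 (8.10 to 26.0) in whole KPC-3403. Fibroblast-like cells with a Ccl2 UMI also had Ccl7 in 73.5%, 84.3% and 68.2% of cells, against 37.5%, 53.5% and 23.8% of those without, in enriched KPC-4545 and the enriched and whole KPC-3403 libraries. Those with Cxcl1 had Ccl2 in 79.4%, 77.9% and 84.6%, against 43.8%, 38.5% and 36.7%. Depth per cell moves with such shares and was not held fixed. Pmp22, Tmem119 and Gas6 ran most alike to Ccl7, with r of 0.972, 0.960 and 0.949.

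Ccl3, the macrophage inflammatory protein made by activated leukocytes, lay in leukocyte classes, with at most 1 UMI in any other class of a library. Neutrophil-like cells had 21.2 (18.7 to 24.0) in whole KPC-4545, 13.8 (10.9 to 17.2) in enriched KPC-3403 and 24.8 (23.3 to 26.4) in whole KPC-3403 (edgeR adjusted p = 8.35e-21). The whole libraries of the lines differed by a ratio of 1.17 (1.02 to 1.35), KPC-3403 being higher, and the enriched library was lower than both. In cluster 13, which held all of the Ccl3 UMIs of the class in whole KPC-4545, the order of the lines was turned, at 43.2 (38.0 to 49.0) in whole KPC-4545 and 39.3 (36.9 to 41.8) in whole KPC-3403, and these intervals overlapped. The other 3 cells of the class in whole KPC-4545 held no Ccl3 UMI and 50.9% of all UMIs of the class, and the other 12 in whole KPC-3403 held 30 Ccl3 UMIs and 38.7%. NK-like cells had 1.22 (0.685 to 2.02) and 1.59 (1.02 to 2.36) in whole KPC-4545 and whole KPC-3403, T-like cells 0.466 (0.307 to 0.679) and 1.27 (1.06 to 1.51), and macrophage/monocyte-like cells 0.446 (0.255 to 0.725) and 0.861 (0.657 to 1.11). The NK-like intervals overlapped between lines, and T-like cells were higher in KPC-3403 by a ratio of 2.72 (1.79 to 4.29). The T-like UMIs lay in 10 of 134 cells of whole KPC-4545 and 19 of 223 of whole KPC-3403, or 7.46% and 8.52%. After thinning the T-like shares were 1.55% and 3.92%, with overlapping intervals. The class test called all 3 higher than the other classes (edgeR adjusted p = 7.92e-08 for NK-like, 2.88e-07 for T-like and 7.68e-06 for macrophage/monocyte-like cells). Free RNA held Ccl3 at 0.481 and 0.464 in whole KPC-4545 and whole KPC-3403. The T-like and macrophage/monocyte-like levels of whole KPC-4545 lay under it, and the other levels of these 3 classes above it. Its part in them was not tested. After thinning, 0% and 6.59% of macrophage/monocyte-like cells had a Ccl3 UMI in whole KPC-4545 and whole KPC-3403. Of the 60 Ccl3 UMIs of macrophage/monocyte-like cells in whole KPC-3403, 36 lay in 6 cells of its sub-cluster 7. That sub-cluster took no name and was led by Elane and Mpo, so this level is not one of macrophages or monocytes alone. Epithelial-like, fibroblast-like and mesothelial-like cells held no Ccl3 UMI, and the unnamed stromal cluster held 1.

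A Ccl3 UMI was seen in 65.4%, 36.4% and 53.1% of neutrophil-like cells, and in 58.3%, 40% and 44.6% after thinning, for whole KPC-4545 and the enriched and whole KPC-3403 libraries. B-like cells had 0% and 0.806%, and 0% after thinning. In the whole libraries, neutrophil-like cells with Cxcl2 also had Ccl3 in 69.6% and 58.6% of cases, against 33.3% and 21.1% of those without Cxcl2. In enriched KPC-3403 the shares were 35.3% with and 40% without, from 22 cells. The ratio of Cxcl2 to Ccl3 UMIs was 4.65, 10.4 and 6.72 in neutrophil-like cells and 30.6 and 10.1 in macrophage/monocyte-like cells of whole KPC-4545 and whole KPC-3403. Lilr4b, Lilrb4a and the neighbouring chemokine Ccl4 ran most alike to Ccl3, with r of 0.967, 0.962 and 0.958.

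**Figure D2:**
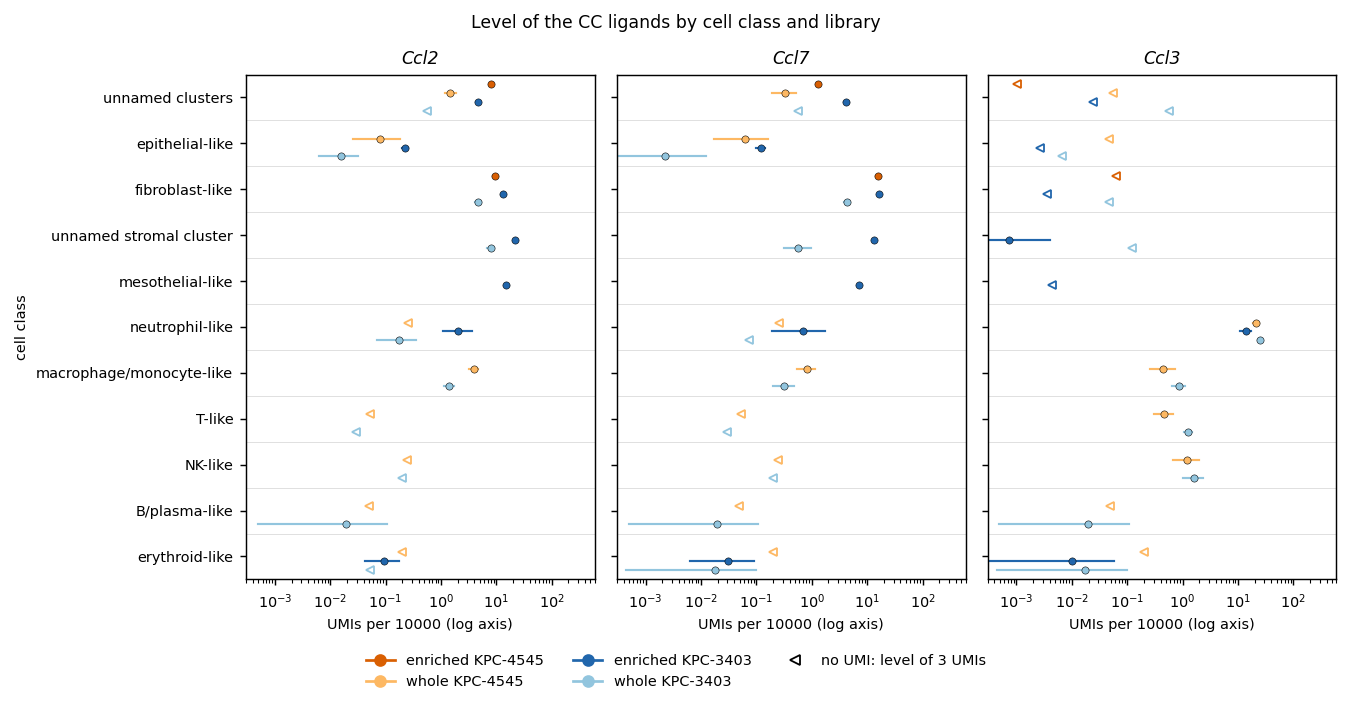
Level of the CC ligands in UMIs per 10000 (log axis) for each cell class (rows) in the 4 libraries (colours), with exact Poisson 95% intervals as bars and open triangles at the level of 3 UMIs where a class had none. Ccl2 and Ccl7 are high in the stromal classes and lower in epithelial-like cells, and Ccl3 is highest in neutrophil-like cells, at 13.8 to 24.8.

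Among the receivers, Cxcr2 lay almost wholly in neutrophil-like cells. Their level was 1.80 (1.11 to 2.75, 21 UMIs) in whole KPC-4545, 3.45 (2.11 to 5.33, 20 UMIs) in enriched KPC-3403 and 2.03 (1.62 to 2.52, 83 UMIs) in whole KPC-3403. The 3 intervals overlapped, and the whole libraries of the lines differed by a ratio of 1.13 (0.694 to 1.92). These cells held 84.0%, 83.3% and 97.6% of the Cxcr2 UMIs of their libraries, and the class was called higher (edgeR adjusted p = 8.41e-16). All other classes held 0 to 5 UMIs in any library. Within the class, cluster 13 had 3.31, 3.45 and 3.28 in the same order. A UMI was seen in 34.6%, 50% and 28.5% of neutrophil-like cells, and in 16.7%, 25% and 19.6% after thinning, against 0.806% of B-like cells of whole KPC-3403. Ly6g, Retnlg and Stfa2l1, genes of mature neutrophils, ran most alike to Cxcr2, with r of 0.956, 0.954 and 0.954. Ly6g and Retnlg were also markers that named this class, so their likeness is partly set by the naming.

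Ccr2 was held by macrophage/monocyte-like, NK-like and T-like cells of the whole libraries. Macrophage/monocyte-like cells had 3.71 (3.11 to 4.40) in whole KPC-4545 and 1.91 (1.60 to 2.26) in whole KPC-3403, a ratio of 1.94 (1.52 to 2.49). NK-like cells had 2.69 (1.85 to 3.78) and 2.38 (1.67 to 3.30), and T-like cells 0.760 (0.552 to 1.02) and 0.516 (0.385 to 0.676). The cells of the macrophage/monocyte-like class were spread differently over its sub-clusters in each line. Sub-clusters 1 and 2, which took the macrophage or monocyte name, were 20 of 45 cells (44.4%) in whole KPC-4545 and 28 of 104 (26.9%) in whole KPC-3403. The rest were dendritic-like or unnamed, but not all lacked such markers. In whole KPC-3403 unnamed sub-cluster 4 had C1qa at 23.9 in its 14 cells. Unnamed sub-cluster 7 had Ly6c2 at 18.0 in its 6 cells there. The intervals of NK-like and T-like cells overlapped between the lines, and those of macrophage/monocyte-like cells did not. The edgeR test called all 3 classes higher, with adjusted p of 5.06e-13, 1.85e-11 and 1.13e-07. Neutrophil-like cells held no Ccr2 UMI in any library. No cell of either enriched library held one, which allows a level of up to 0.000985 in enriched KPC-4545 and 0.000705 in enriched KPC-3403. A UMI was seen in 35.6% and 27.9% of macrophage/monocyte-like cells and in 59.3% and 45.0% of NK-like cells, falling to 23.7% and 13.2%, and to 25.9% and 12.5%, after thinning. B-like cells had none. Klrk1 and Klrd1 were among the genes that ran most alike to Ccr2, with r of 0.948 and 0.924.

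The macrophage/monocyte-like class was itself mixed, and its sub-clusters differed in their levels of the ligands and the receptor. Sub-cluster 2, led by Vcan and Ms4a4c and carrying the monocyte gene Ly6c2, had Ccr2 at 9.97 and 6.22 in its 8 and 13 cells of whole KPC-4545 and whole KPC-3403. Sub-cluster 1, led by Arg1 and the complement gene C1qc, had Ccr2 at 4.73 and 3.36 in its 12 and 15 cells. Within each sub-cluster the Ccr2 intervals of the lines overlapped. For Cxcl2 and Ccl2 the order of the sub-clusters was the opposite: Cxcl2 was at 39.9 and 39.0 and Ccl2 at 10.9 and 4.42 in sub-cluster 1, against 2.57 and 10.9, and 1.45 and 1.82, in sub-cluster 2. Ccl7 was at 2.45 and 1.5 in sub-cluster 1 and had no UMI in sub-cluster 2. The value of 1.5 came from 17 UMIs in 6.67% of the 15 cells. Ccl3 had no common order, at 0.506 and 0.796 in sub-cluster 1 and 1.13 and 0.478 in sub-cluster 2, from 5 to 9 UMIs each. Unnamed sub-cluster 7 had Ccl3 at 3.06 in its 6 cells of whole KPC-3403, from 36 UMIs. Between the lines, Ccl2 was higher in KPC-4545 in sub-cluster 1, while in sub-cluster 2 KPC-3403 was higher with overlapping intervals. Over the whole class, cells with a Ccl2 UMI held Ccr2 in 66.7% and 71.4% of cases in whole KPC-4545 and whole KPC-3403, against 27.8% and 21.1% of cells without, from 9 and 14 cells with Ccl2. Dendritic-like sub-cluster 3, marked by Clec9a, had Ccr2 at 0.616 in its 17 cells of whole KPC-3403. These cell numbers are small, and the split was described without a test.

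**Figure D3:**
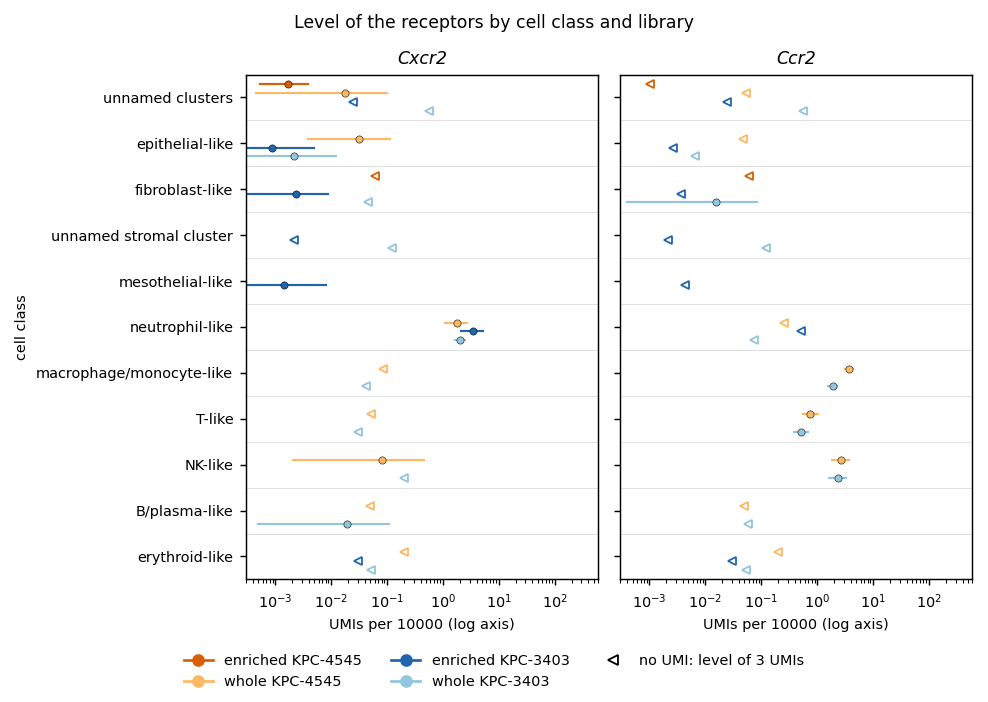
Level of the receptors Cxcr2 and Ccr2 in UMIs per 10000 (log axis) for each cell class (rows) in the 4 libraries (colours), with exact Poisson 95% intervals as bars and open triangles at the level of 3 UMIs where a class had none. Cxcr2 stands out in neutrophil-like cells, at 1.80 to 3.45, and Ccr2 in macrophage/monocyte-like, NK-like and T-like cells of the whole libraries.

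The amount each class gave to a library depends on its level and on how many of its cells were captured. Of Cxcl1 UMIs, unnamed cells held 98.2% in enriched KPC-4545 and 55.1% in whole KPC-4545, where epithelial-like cells added 24.8%. In KPC-3403 epithelial-like cells held 0.166% in the enriched and 0.645% in the whole library. There the unnamed stromal cluster held 53.3%, fibroblast-like cells 29.4% and mesothelial-like cells 17.1% in the enriched library, and fibroblast-like cells 66.5% in the whole library from 43 cells. Neutrophil-like cells held 64.4% of Cxcl2 UMIs in whole KPC-4545, 88.4% in whole KPC-3403 and 3.01% in enriched KPC-3403. They were 4.93%, 11.9% and 0.892% of cells in those libraries.

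For Cxcl5, epithelial-like cells held 48.1% and unnamed cells 43.2% in whole KPC-4545, and epithelial-like cells 90.1% in whole KPC-3403. Ccl2 had different leading sources in the whole libraries: macrophage/monocyte-like cells held 50.2% in KPC-4545 and 10.9% in KPC-3403, where fibroblast-like cells held 33.9% and the unnamed stromal cluster 21.7%. Whole KPC-4545 had 2 fibroblast-like cells, against 43 in whole KPC-3403, which moves with these shares. Ccl7 was held to 78.1% by fibroblast-like cells in whole KPC-3403, and to 39.7% by macrophage/monocyte-like cells in whole KPC-4545, from 73 UMIs in all. Neutrophil-like cells held 81.0% and 82.6% of Ccl3, and macrophage/monocyte-like cells 63.3% and 59.9% of Ccr2, in whole KPC-4545 and whole KPC-3403.

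**Figure D4:**
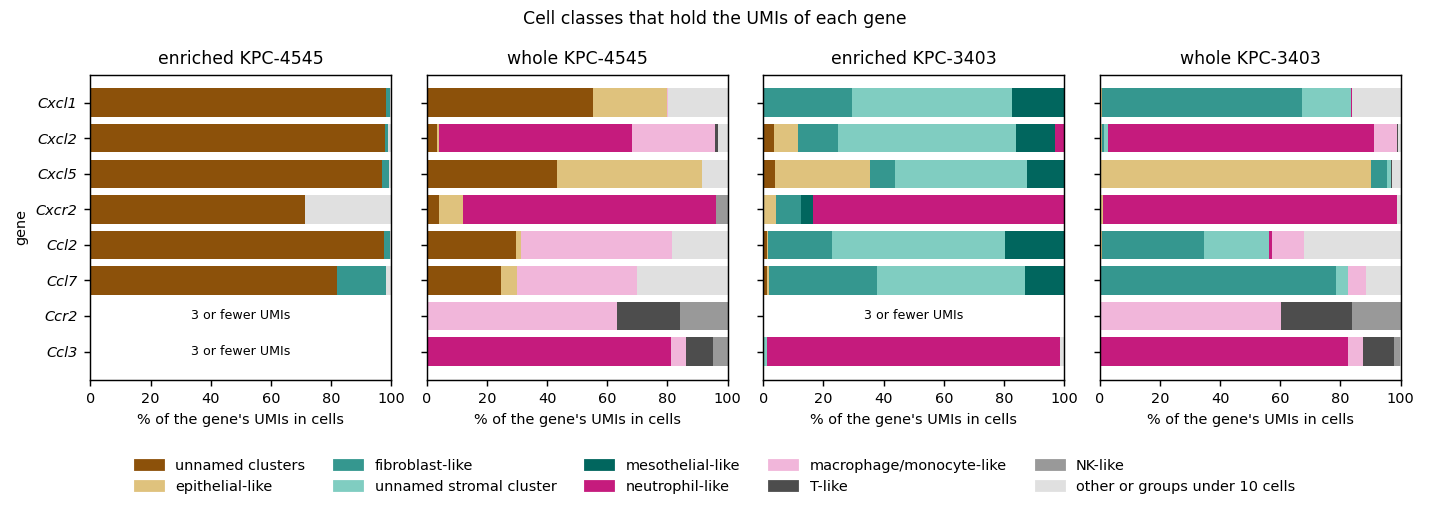
Share (%) of each gene's UMIs held by each cell class (colours) in the cells of the 4 libraries (panels), with groups under 10 cells pooled as other. Unnamed clusters hold most of the ligands in enriched KPC-4545, stromal classes in enriched KPC-3403, and neutrophil-like cells hold Cxcl2, Ccl3 and Cxcr2 in the whole libraries.

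The lines were compared in tumour-like cells, taken as the epithelial-like clusters with the 3 unnamed clusters nearest to them (6, 9 and 15). The lines lay in different clusters: the unnamed ones held 656 of 662 such cells in enriched KPC-4545 and 32 of 76 in whole KPC-4545, against 22 of 685 in enriched and 10 of 319 in whole KPC-3403. The set need not be tumour cells alone. Cluster 12, led by Prap1 and Lypd8 with Reg3g, gave 132 of the 319 cells of whole KPC-3403. It held all 5 Cxcl1, 62 of 68 Cxcl2 and 5 of 7 Ccl2 UMIs there. Cluster 16, which scored higher for acinar (4.48) than epithelial markers (1.56), gave 91 Cxcl1 UMIs in whole KPC-4545. Values are UMIs scaled to effective library size (CPM). Cxcl1 stood at 1235 CPM in enriched KPC-4545, 346 in whole KPC-4545, 5.81 in enriched KPC-3403 and 1.10 in whole KPC-3403, from 21307, 404, 67 and 5 UMIs. Both KPC-4545 libraries lay above both KPC-3403 libraries, and KPC-3403 was lower by a log2 difference of -7.99 ± 0.37 (SE, n = 2 libraries per line; edgeR adjusted p = 0.00691). Ccl2 stood at 861, 42.8, 24.8 and 1.54 CPM in the same order, and was lower in KPC-3403 by -5.05 ± 0.33 (adjusted p = 0.0155 in edgeR). Its whole KPC-4545 value was close to that of enriched KPC-3403, and within each preparation KPC-4545 was higher. In whole KPC-4545 the 10 cells of cluster 9 gave 266 of the 404 Cxcl1 UMIs and 40 of the Ccl2 UMIs. Within cluster 9, Cxcl1 was at 15.7 and 8.28 per 10000 in enriched and whole KPC-4545 and at 0.0251, from 1 UMI, in the 10 cells of enriched KPC-3403, and Ccl2 at 10.9, 1.24 and 0.527. These were 2 of the 5 tested genes, where 0.281% of all 12108 genes passed in either direction and 0.173% as lower. With 1 library left out, which also drops the preparation term, none of the tested ligands passed without enriched KPC-4545, enriched KPC-3403 or whole KPC-3403. Without whole KPC-4545, Ccl2 did not pass, and the calls of Cxcl1 and Cxcl5 rest on 1 library of that line and are no support. In a wider set that took in every unnamed cluster not nearest to stroma, Cxcl1 passed (edgeR adjusted p = 0.0305) and Ccl2 did not (adjusted p = 0.193).

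The other 3 ligands did not pass. Ccl7 stood at 117, 9.43, 15.4 and 0.220 CPM in the enriched and whole KPC-4545 and the enriched and whole KPC-3403 libraries (log2 difference of KPC-3403 from KPC-4545 -3.48, edgeR adjusted p = 0.112). Cxcl2 stood at 292, 61.7, 198 and 15 (-1.31, adjusted p = 0.262). Cxcl5 stood at 42.6, 59.1, 178 and 151 (1.66, adjusted p = 0.13), the only ligand with both KPC-3403 libraries above both KPC-4545 libraries. Cxcr2, Ccr2 and Ccl3 were too low in these cells to be tested. By counts alone, Cxcl1 differed by a ratio of 216 (170 to 279) between the enriched and 331 (141 to 1025) between the whole libraries, and Cxcl5 the other way by 4.11 (3.78 to 4.48) and 2.43 (1.89 to 3.16).

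In the same fit the sorted tumour-like cells had more Ccl2 than the unsorted ones, by a log2 difference of 4.15 ± 0.32 (SE, n = 2 libraries per preparation; edgeR adjusted p = 0.0231). It was 1 of 5 tested genes, where 0.0826% of all genes passed in either direction and 0.0248% as higher. Ccl2 did not pass in edgeR with any 1 of the 4 libraries left out (lowest adjusted p = 0.531), without the line as a block (adjusted p = 0.929) or in the wider set (adjusted p = 0.356). The clusters behind the preparations differed in KPC-4545: clusters 6, 9 and 15 had 283, 236 and 137 cells in the enriched library and 19, 10 and 3 in the whole one, beside 19 of cluster 12 and 17 of cluster 16. Their part in the difference was not tested. Ccl7 (4.27, adjusted p = 0.168), Cxcl2 (2.93, adjusted p = 0.248), Cxcl1 (1.98, adjusted p = 0.168) and Cxcl5 (-0.16, adjusted p = 0.876) did not pass in edgeR. Free RNA held Ccl2 at 4.32 and 10.6 per 10000 in enriched KPC-4545 and enriched KPC-3403 and at 2.41 and 1.16 in the whole libraries, and its part in the difference was not tested.

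**Figure D5:**
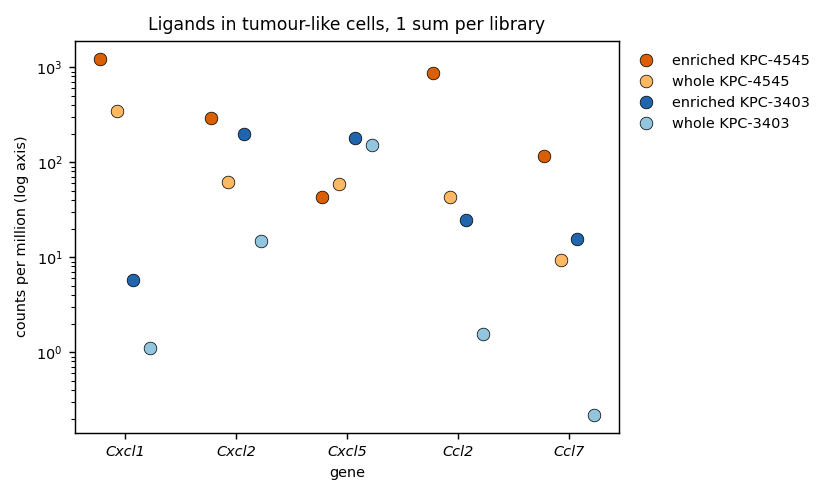
UMIs scaled to library size, as CPM (log axis), of the 5 ligands tested in tumour-like cells, 1 point per library. For Cxcl1 both KPC-4545 libraries, at 346 and 1235, lie above both KPC-3403 libraries, at 1.10 and 5.81, and for Cxcl5 both KPC-3403 libraries lie above both KPC-4545 libraries.

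Over all cells of a library, the sorted and unsorted preparations differed in direction by role. Cxcl1 stood at 1605 and 923 CPM in enriched KPC-4545 and enriched KPC-3403, against 147 and 86.9 in whole KPC-4545 and whole KPC-3403 (log2 difference 3.39 ± 0.29, SE, n = 2 libraries per preparation, edgeR adjusted p = 0.0610). Ccl2 stood at 748 and 1294 against 80.3 and 100.7 (3.42 ± 0.32, adjusted p = 0.0657), and Ccl7 at 147 and 955 against 21.2 and 39.5 (3.68, adjusted p = 0.144). Both enriched libraries lay above both whole libraries for these 3 and for Cxcl5 (1.46, adjusted p = 0.228). The leukocyte genes lay the other way in every library. Ccl3 had 2 and 82 UMIs in the enriched and 306 and 1228 in the whole libraries, Cxcr2 7 and 24 against 25 and 85, and Ccr2 0 and 0 against 210 and 222 (adjusted p = 0.166, 0.124 and 0.0610 in edgeR). Cxcl2 stood at 286 and 692 against 519 and 864 CPM, and the preparations overlapped (-0.62, adjusted p = 0.409).

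None of the 8 genes passed in that comparison, where 0.159% of 15092 genes did, all of them lower. At an unadjusted p under 0.05 there were 7 of the 8, and 2503 of all genes. DESeq2 called 6 of the 8, and 1571 of all 15092 genes. Calls with 1 library left out rest on 1 library of a preparation and are not read here. The sort acts against CD45, and each leukocyte class had 0 to 22 cells in the enriched libraries. Fewer leukocytes and lower levels per cell cannot be told apart in sums over all cells. Between the lines over all cells, edgeR called none of the 8, where 0% of all genes passed, with adjusted p of at least 0.803. At an unadjusted p under 0.05 there were 4 of the 8 (Cxcl1, Cxcl2, Cxcl5 and Ccl7) and 860 of all genes, and DESeq2 called none of the 8.

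The wider pathway was given by a list of 43 other chemokines, receptors, growth factors and inducers. In the class test 32 of them were tested. In neutrophil-like cells 20 were higher (62.5%, against 13.7% of all genes) and 1 lower (3.12% against 5.84%), with the inflammatory cytokines Il1b and Il1a, the growth factor receptor Csf3r and the chemokine receptor Ccr1 leading. Csf3r was itself a marker that named this class, so its call was set by the naming and is no result. The list's median log2 difference there was 2.81, against -0.238 over all genes. Macrophage/monocyte-like cells had 19 higher (59.4% against 12.8%) and 0 lower (0.688% of all genes), led by Il1b, Ccl6, Ccl9 and Csf1r, with a median of 3.91 against 0.129. Csf1r was likewise a marker that named this class. Fibroblast-like cells had 15 higher (46.9% against 23.6%) and 3 lower (9.38% against 4.57%), led by Ccl11, Cxcl12, the scavenger receptor Ackr3 and Ccl8, with a median of 1.62 against 0.237. T-like cells had 7 higher (21.9% against 10.1%) and 1 lower (3.12% against 1.04%), with a median of 0.332 against 0.103. NK-like cells had 5 higher (15.6% against 6.75%) and 0 lower (0.911% of all genes), with a median of -2.99 against -0.183, and the lymphocyte chemokines Ccl5 and Ccl4 were named in both. Epithelial-like cells had 7 higher, among them Cx3cl1 and Cxcl16, a share of 21.9% that lay near the 24.6% of all genes. They had 5 lower, among them Ccl4 and Cxcr4 (15.6% against 7.43%), with a median of -0.611 against 0.207. B-like cells had 1 higher (3.12% against 9.29%) and 6 lower (18.8% against 2.65%), and erythroid-like cells 1 higher (3.12% against 14.6%) and 7 lower (21.9% against 13.1%).

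Between preparations over all cells, 1 of 39 tested list genes passed, Ccl5, at 4.77 and 4.24 CPM in the enriched and 1226 and 998 in the whole libraries (log2 difference -7.97, edgeR adjusted p = 0.0391). The list's median there was -1.17, against 0.0288 over all genes. Between the lines over all cells 0 of 39 passed, with a median of 1.04 against 0.0224. In tumour-like cells 0 of 24 passed between lines (0.291 against 0.0188) and 0 of 24 between preparations (0.519 against 0.0138). The list genes with the highest levels there were the feedback genes of inflammatory signalling Nfkbia and Zfp36. Nfkbia stood at 1101, 208, 449 and 218 CPM in the enriched and whole KPC-4545 and the enriched and whole KPC-3403 libraries, and Zfp36 at 821, 170, 595 and 248. Both were highest in the enriched libraries, without passing (edgeR adjusted p = 0.416 and 0.277).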

How the data were processed

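The 4 matrices were deposited by the authors as raw UMI counts, genes by droplet barcodes. The submitters' processing notes name Cell Ranger 6.1.1 and the build mm10, and a software entry of Cell Ranger 4 stands there per the file headers. Cells were called here by thresholds of 500 UMIs, 250 genes and a mitochondrial share of 20% or less, and, up to 5000 UMIs, a profile differing from that of barcodes with at most 100 UMIs (1000 Monte Carlo draws, false discovery rate 0.01). Copies of a barcode at least 10 times shallower than in another library were removed (135 in enriched KPC-4545, 0 in whole KPC-4545 and 8 in each KPC-3403 library), and doublets at 0.8% per 1000 cells (19, 2, 51 and 10 cells). The resulting 5597 cells were clustered in scanpy 1.11.5 (2000 variable genes without the 8 genes and the pathway list, 30 principal components, 15 neighbours, Leiden resolution 1 with leidenalg 0.10.2). A cluster took the best of 19 marker classes with at least 3 markers in 10% of its cells, and 7 of 25 clusters with 2379 cells stayed unnamed.

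UMI counts were summed per library, or per class and library with at least 20 cells, and tested with edgeR 4.0.16 (TMM, filterByExpr, robust quasi-likelihood, Benjamini-Hochberg at 0.05 over all genes; limma 3.58.1, R 4.3.3), with DESeq2 1.42.0 as an alternative. Line and preparation entered together, which leaves 1 residual degree of freedom, and library was a block in the class test. Nothing in the labels says that separate animals were used, so the p-values reflect only how far these libraries vary, which may be technical. Replicate numbers pair the libraries because each number is 1 tumour line. Checked over 15092 genes, both KPC-4545 libraries deviated from the mean of their preparation with a correlation of 0.251. On simulated data of the preparation comparison over all cells (14392 genes), 92.9% of genes changed by 2 on the log2 scale and 100% of those changed by 4 were called. For the class test (8183 genes) the shares were 76% and 92%. In both simulations all sums shared 1 profile apart from the added changes, with a fixed dispersion of 0.05. There was no effect of line, nor of any other class. The spread of the real sums was not modelled, so these shares do not give the power on the data. In the data the preparation comparison called 24 of 15092 genes.

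Levels have exact Poisson and shares exact Clopper-Pearson 95% intervals (scipy 1.17.1, Python 3.11.15), and for cells with a UMI each cell was thinned to 1000 UMIs, leaving out shallower cells. A count of 0 allows the level of 3 UMIs. Named genes are the 8 members, up to 4 genes of the pathway list per comparison (those passing with the largest log2 difference, otherwise the 2 with the highest level), and for each member the 3 genes most correlated over class sums among 13283 genes with at least 100 UMIs. Plac9b, Lilr4b, Lilrb4a and Stfa2l1 have near-identical copies among which reads may be split. The members and lists were chosen with earlier results of these data known, and the naming rule, the removal of shallow copies and the set of tumour-like clusters were chosen after seeing the data. The line test on named epithelial-like clusters alone could not be run as designed, since enriched KPC-4545 had 6 such cells. Promoter stretches are those of RefSeq, GRCm38.p6. A gene that the naming rules also selected is not reported here.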

Additional observations from a re-analysis of the deposited data

Results flagged for a closer look

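The effect of the sort on Cxcl5 in tumour-like cells went in opposite directions in the lines. The log2 ratio of enriched to whole was -0.473 in KPC-4545 and 0.236 in KPC-3403. There is 1 library for each line and preparation, and the difference between these ratios was not tested. The other 4 ligands tested in these cells were higher in the enriched library of both lines.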

How the results depend on the processing

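In the preparation comparison over all cells, where edgeR called 0 of the 8 genes, 4 passed with no filter on low counts, 6 with DESeq2 and 0 to 6 with 1 library left out. Between the lines in tumour-like cells, where 2 passed, 5 did with no filter, 4 with DESeq2, 1 in the wider set of tumour-like clusters and 0 to 2 with 1 library left out. Between the preparations in tumour-like cells, where 1 passed, 4 did with no filter, 4 with DESeq2, 2 with cells limited to 1000 UMIs and 500 genes or more, 2 with shallow copies of barcodes kept, 0 in the wider set, 0 without the replicate block and 0 to 0 with 1 library left out. The class test gave 10 to 21 pairs with 1 library left out, against 18 of 64. The 10 are of 28 pairs in 4 classes (7 higher, 3 lower, without whole KPC-3403), and without whole KPC-4545 there were 8 higher and 8 lower of 28, so these fits differ in form. DESeq2 called 18 higher and 9 lower of 64. The wider set and the kept copies were chosen after seeing the data. Leaving out a library also drops the other term of the fit, and the cause of these changes was not tested. For the preparation and line comparisons the counts over all genes are given next. They too rose with no filter and with DESeq2.

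Over all genes, the preparation comparison called 24 genes, 590 with no filter, 1571 with DESeq2, 0 with RLE size factors, 0 with the stricter cell filter, 0 without the replicate block, and 1422, 2666, 0 and 0 without enriched KPC-4545, enriched KPC-3403, whole KPC-4545 and whole KPC-3403. The line comparison over all cells called 0, 26 with no filter and 140 with DESeq2. The main, RLE and DESeq2 fits tested 15092 genes over all cells and 12108 in tumour-like cells. With no filter 22473 and 18831 genes were tested. In tumour-like cells the line comparison called 34 genes, 19 with RLE size factors, 1277 with no filter, 395 with DESeq2, 7 in the wider set, and 3, 11, 1692 and 8 with the libraries left out in the same order. The preparation comparison there called 10, 6 with RLE size factors, 6 at Leiden resolution 2, 647 with no filter, 253 with DESeq2, 17 with the stricter cell filter, 5 in the wider set, 0 without the block, and 53, 1071, 0 and 0 with the libraries left out.

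The pairing by line changed 1 call: without the replicate block Ccl2 in tumour-like cells had an adjusted p of 0.929 in edgeR, and Cxcl5 there had a log2 difference of 0.000406 in place of -0.16. Over all cells the log2 differences without the block were 3.40 for Cxcl1 and 3.46 for Ccl2, and no call changed.

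Directions reversed mostly where a library was left out, which leaves lines or preparations unevenly matched. Between the lines over all cells, Ccl2 ranged from -2.02 (without enriched KPC-3403) to 3.04, and was -0.15 without whole KPC-4545. Ccl3 ranged from -4.50 (without whole KPC-3403) to 10.01, and was -0.38 without enriched KPC-4545. Ccl7 ranged from -1.07 (without enriched KPC-3403) to 4.47, and Ccr2 from -12.64 to 11.39 (without whole KPC-4545). Cxcl1 ranged from -3.31 to 1.70 (without enriched KPC-4545) and was 0.06 without whole KPC-3403, and Cxcr2 ranged from -2.66 (without whole KPC-3403) to 4.48 and was -0.58 without enriched KPC-4545. In tumour-like cells Cxcl2 between lines ranged from -3.56 to 0.73 (without enriched KPC-4545) and was 0.15 without whole KPC-3403. Between preparations there, Cxcl1 ranged from -4.94 (without enriched KPC-4545) to 9.13, and Cxcl5 from -1.35 to 0.84 (without whole KPC-3403), with 0.71 without enriched KPC-4545 and 0.42 in the wider set. None of the reversed values passed.

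The class with the highest level of a gene was unchanged in 16 of 29 pairs of library and gene at Leiden resolution 2, where some neutrophil-like cells took no class name and the class left the class test. By share of UMIs it was 17 of 29 and by share of cells with a UMI 15 of 29. Of the levels of single classes, 67 recomputed values stayed within their counting interval and 21 moved. In the class test 186 recomputed results of single genes kept their call and direction and 4 lost the call, over the classes each setting could fit. B-like, macrophage/monocyte-like, NK-like and T-like cells had no value without either whole library, nor fibroblast-like cells with the whole libraries alone. Depth limits what can be said of Cxcr2, with at most 85 UMIs in a library, of Ccr2 in the enriched libraries, and of every stromal value in whole KPC-4545.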
